A study of Mus musculus with 5 samples.

Results

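The genes described here act in the deposition of bone mineral: Ibsp, Dmp1, Mgp, Alpl, Phex, Smpd3, Ifitm5, Sp7, Dlx5 and Enpp1. They were taken by symbol, with every probe set of the deposited table whose annotation gives that symbol and no other. Of the 10 genes listed, 9 had such a probe set, with 15 probe sets in all among 45101 on the array, and the same 9 were among the 11075 genes, of 18193 with a probe set of their own, that passed a filter on low intensity. Enpp1, whose product makes pyrophosphate, had no probe set of its own in the annotation used here and is not analysed further.

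Expression was measured on 5 single-colour Affymetrix arrays, 1 for each of days 2, 6, 9, 12 and 15 of culture. Each array held RNA of primary rib chondrocytes of FVB mouse embryos at gestational day 18.5, freed by collagenase and trypsin and grown at high density on gelatin. All 5 cultures had serum-containing medium with ascorbic acid and 10 mM beta-glycerophosphate, a phosphate source, and no culture without them was analysed here. The labels do not say whether the days came from 1 cell isolate, how many embryos were pooled, or whether both sexes were included. With 1 array per day there is no replicate and no test between 2 days, so "higher" and "lower" below describe these arrays.

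Bone mineral is calcium phosphate laid down in a collagen matrix. Pyrophosphate blocks crystal growth, ENPP1 makes it, ANK exports it, and the tissue-nonspecific alkaline phosphatase encoded by Alpl breaks it down to phosphate. Osteoblasts, osteocytes and late hypertrophic chondrocytes are the cells known for this programme, and resting rib cartilage is not.

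Values are MAS5 intensities on a linear scale. Before any fold was taken, intensities were raised to a floor of 73.1, which is the 40th percentile over the whole table, and a fold with 1 day under the floor is written as "at least". Each gene is read from its brightest probe set, the other probe sets of the 9 genes are given beside it, and no probe set's level is set against another's. As a yardstick of probe error, the spread between 2 probe sets of the same gene, over 3317 genes that had 2, gave an SD of 0.68 for 1 probe set's log2 difference between day 15 and day 2, and 0.47 between day 9 and day 6. That yardstick covers neither the cultures nor the hybridisations. The median intensity of an array lay between 106 and 118, and 58.8% to 61.9% of probe sets were at or above the floor.

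The promoter sequences are shown because several of these genes were higher over the same interval. RefSeq promoter entries on GRCm38.p6 matched 6 of the 10 genes, with 7 windows for 5 of the 9 measured genes, and Mgp, Smpd3, Sp7 and Dlx5 had no entry. Each window is the 250 bases before an annotated start, 5′ to 3′ on the gene's strand. Capitals mark matches to 5 motifs, read on both strands. The core of the Runx element, bound by the osteoblast factor Runx2, was searched as TGTGGT. The core bound by many homeodomain factors, Dlx5 among them, was searched as TAATTA. The GC box, which zinc-finger factors of the Sp family bind, was searched as GGGCGG. The TATA box, where the basal transcription machinery can assemble, was searched as TATAAA. The element of the AP-1 factors Fos and Jun was searched as TGANTCA. The 5 windows of measured genes that hold a match are Ibsp at chr5:104299037-104299286, plus strand; the inner Dmp1 start at chr5:104202367-104202616, plus strand; Alpl at chr4:137796385-137796634 and chr4:137766476-137766725, both minus strand; and Ifitm5 at chr7:140950244-140950493, minus strand.
Ibsp: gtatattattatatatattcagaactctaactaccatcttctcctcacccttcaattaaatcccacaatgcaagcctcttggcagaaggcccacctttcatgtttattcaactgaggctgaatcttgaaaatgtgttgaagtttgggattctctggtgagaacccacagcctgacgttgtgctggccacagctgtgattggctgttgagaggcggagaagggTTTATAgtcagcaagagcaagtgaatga
Dmp1, inner start: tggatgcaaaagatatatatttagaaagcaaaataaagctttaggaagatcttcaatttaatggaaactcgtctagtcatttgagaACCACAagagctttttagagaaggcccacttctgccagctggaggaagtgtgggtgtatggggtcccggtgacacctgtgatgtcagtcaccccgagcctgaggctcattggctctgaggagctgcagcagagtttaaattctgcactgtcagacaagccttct
Alpl, outer start: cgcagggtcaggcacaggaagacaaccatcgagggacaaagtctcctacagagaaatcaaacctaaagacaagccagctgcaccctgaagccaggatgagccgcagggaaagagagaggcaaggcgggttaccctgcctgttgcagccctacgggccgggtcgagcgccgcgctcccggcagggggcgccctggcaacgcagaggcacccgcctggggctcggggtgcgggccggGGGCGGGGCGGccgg
Alpl, inner start: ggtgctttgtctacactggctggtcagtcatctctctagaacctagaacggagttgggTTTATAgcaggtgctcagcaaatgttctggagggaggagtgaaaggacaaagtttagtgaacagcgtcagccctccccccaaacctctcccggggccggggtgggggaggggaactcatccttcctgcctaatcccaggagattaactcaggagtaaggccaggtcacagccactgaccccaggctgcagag
Ifitm5: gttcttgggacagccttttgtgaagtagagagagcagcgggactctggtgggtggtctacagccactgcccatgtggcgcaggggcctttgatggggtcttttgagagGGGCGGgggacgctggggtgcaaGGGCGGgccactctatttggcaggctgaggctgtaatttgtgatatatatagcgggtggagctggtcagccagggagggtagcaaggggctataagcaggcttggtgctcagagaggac

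In the Ibsp window the match is a TATA box read on the opposite strand, at -28 to -23 from the start. The inner Dmp1 window has 1 Runx core on the opposite strand at -164 to -159. The outer Alpl window has 2 GC boxes, at -15 to -10 and -10 to -5, which overlap by 1 base, and the inner one a TATA box on the opposite strand at -192 to -187. The Ifitm5 window has 2 GC boxes, at -142 to -137 and -119 to -114. The outer Dmp1 window at chr5:104197325-104197574, plus strand, and the Phex window at chrX:157415287-157415536, minus strand, hold none of the 5 motifs. Of all 32851 RefSeq windows of this length, 14.0% hold the Runx core, 4.84% the homeodomain core, 32.7% the GC box, 12.4% the TATA box and 6.75% the AP-1 element. A match is a run of letters and was not tested as a binding site, and no motif is shared by all of these windows.

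The 9 measured genes were all at least 2-fold higher on day 15 than on day 2, and none was lower, by their brightest probe sets. Among all genes tested, 16.2% were higher by 2-fold or more and 11.6% lower. At least 4-fold higher were 8 of the 9, against a background of 5.22%, with Mgp the exception. The median log2 difference of the 9 was 3.49, and that of all genes was 0.00. In whole cultures more cells of a type and more RNA per cell cannot be told apart. By probe set, 13 of 15 were at least 2-fold higher, where 14.9% of the 22519 probe sets past the filter were; 1 of Smpd3 was lower and another of Smpd3 was under 2-fold.

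**Figure D1:**
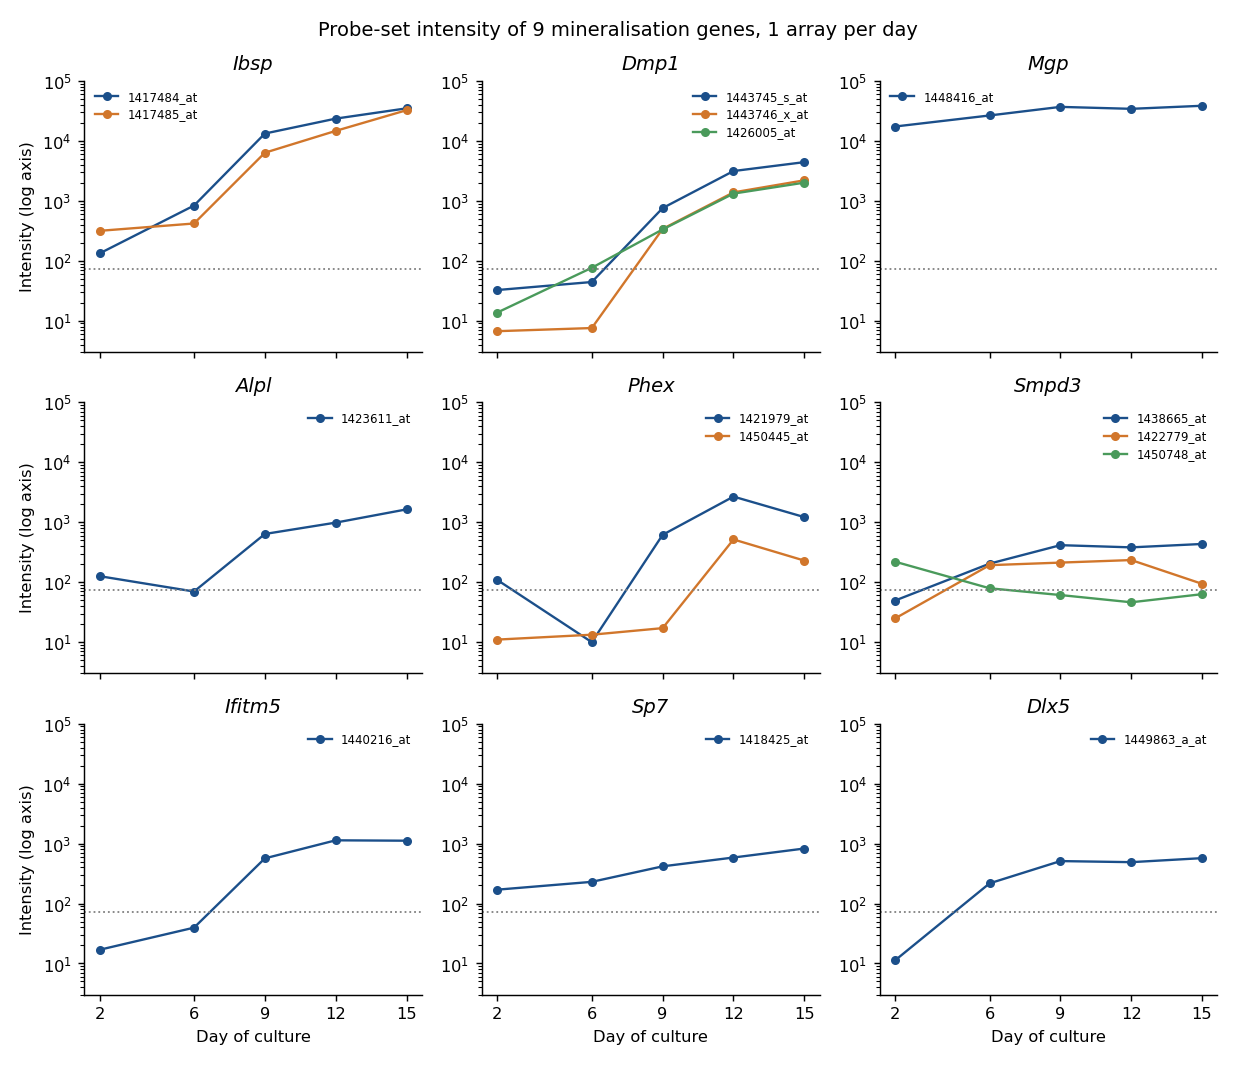
Intensity on a log axis against day of culture for the 15 probe sets of the 9 genes, 1 array per day, with the floor of 73.1 as a dotted line. Ibsp, Dmp1, Alpl, Phex and Ifitm5 are steepest between days 6 and 9 by their brightest probe sets, Mgp is high on every day, and the 3 Smpd3 probe sets do not run together.

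Among the matrix proteins, Ibsp encodes bone sialoprotein, an acidic phosphoprotein that binds hydroxyapatite. Its brightest probe set read 133 on day 2, 836 on day 6, 13297 on day 9, 23593 on day 12 and 35026 on day 15. The second probe set read 316, 420, 6364, 14726 and 32620 on the same days. Both were higher on each day than on the one before, and they differ in the first interval: day 6 was 6.29-fold above day 2 by the brightest and 1.33-fold by the other. Day 15 was 264-fold above day 2 (log2 8.04) by the brightest probe set and 103-fold (log2 6.69) by the other. With the floor applied, the difference by the brightest probe set ranks 1 among the 11075 genes. Col1a1, at log2 6.85, lies above the second probe set. Genes under the floor on day 2 enter the ranking with lower bounds only. Among these is Selenop, at 12.8 on day 2 and 6016 on day 15, entered at log2 6.36. Day 9 was 15.9-fold and 15.2-fold above day 6 by the 2 probe sets. By the brightest, 82.6% of the log2 difference between day 15 and day 2 was reached by day 9. By the other, day 9 was log2 4.33 above day 2, a smaller share of its log2 6.69 on day 15.

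Dmp1 encodes dentin matrix protein 1, a phosphoprotein of osteocytes and dentin whose loss in mice leaves bone poorly mineralised. Its brightest probe set read 32.6 on day 2, 44.3 on day 6, 759 on day 9, 3148 on day 12 and 4432 on day 15. The first 2 days lie under the floor and the last 3 far above it. Day 15 was at least 60.6-fold above day 2, and at least 30.2-fold and 27.6-fold by the other 2 probe sets, of which the first is built on the same target sequence as the brightest. Those 2 read 6.70 and 13.7 on day 2, 7.56 and 76.5 on day 6, 341 and 334 on day 9, 1387 and 1323 on day 12, and 2204 and 2016 on day 15, both highest on day 15. Day 9 was at least 10.4-fold above day 6 and day 12 was 4.15-fold above day 9, the second largest fold of the 9 over that interval after Phex. In RefSeq order on chromosome 5, Dmp1 and Ibsp are neighbours in a cluster of related phosphoprotein genes with Dspp, Mepe and Spp1. Dspp and Mepe did not pass the intensity filter and Spp1 had no probe set of its own, so only Dmp1 and Ibsp of this cluster were measured. Mepe read 113 on day 2 and was under the floor on each later day, at 59.3, 11.3, 61.8 and 39.2.

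Mgp encodes matrix Gla protein, a vitamin K-dependent inhibitor of calcification made by cartilage and vascular smooth muscle. It read 17424 on day 2, 26632 on day 6, 37046 on day 9, 34375 on day 12 and 38653 on day 15. It was bright on every array and had the smallest difference of the 9, 2.22-fold between day 15 and day 2 (log2 1.15). Day 12 was 1.97-fold above day 2, and 94.7% of the log2 difference was reached by day 9. Mgp is set apart by its role, as the inhibitor among the 9, and ranks 1515 among all genes.

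Among the enzymes, Alpl encodes tissue-nonspecific alkaline phosphatase. It read 126 on day 2, 69.8 on day 6, 637 on day 9, 985 on day 12 and 1640 on day 15. Day 6 was under the floor and at least 1.72-fold below day 2, and each later day was above the one before. Day 15 was 13.0-fold above day 2 (log2 3.70), and day 9 was at least 8.72-fold above day 6.

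Phex encodes a membrane endopeptidase of osteoblasts and osteocytes, mutated in X-linked hypophosphataemia. Its brightest probe set read 109 on day 2, 9.98 on day 6, 617 on day 9, 2680 on day 12 and 1218 on day 15. The second read 11.0, 13.3, 17.1, 516 and 229. Both peaked on day 12, and day 15 was 2.20-fold below day 12 by the brightest and 2.25-fold by the other. They differ on days 2 and 9, when the brightest was above the floor and the other under it. Day 15 was 11.2-fold above day 2 by the brightest and at least 3.13-fold by the other.

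Smpd3 encodes neutral sphingomyelinase 2, which cleaves sphingomyelin to ceramide and phosphocholine and whose loss in mice impairs mineralisation of cartilage and bone. Its brightest probe set read 49.4 on day 2, 204 on day 6, 414 on day 9, 381 on day 12 and 434 on day 15. The second read 24.9, 192, 212, 234 and 93.8, and the last 220, 79.1, 61.0, 46.2 and 63.1. Day 15 was at least 5.93-fold above day 2 by the brightest and at least 1.28-fold by the second, and lower by the last, by at least 1.59 on the log2 scale (log2 -1.59). The direction of Smpd3 therefore depends on the probe set, and its call rests on the brightest.

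Ifitm5 encodes a small membrane protein of osteoblasts, also called BRIL, mutated in a form of osteogenesis imperfecta with excess callus. It read 16.9 on day 2, 39.6 on day 6, 567 on day 9, 1134 on day 12 and 1117 on day 15. Days 2 and 6 were under the floor, and days 12 and 15 were level, 1.02-fold apart. Day 15 was at least 15.3-fold above day 2, and day 9 at least 7.76-fold above day 6.

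Both transcription factors were higher on day 15 too. Sp7 encodes osterix, a zinc-finger factor needed for osteoblast formation. It read 170 on day 2, 230 on day 6, 417 on day 9, 586 on day 12 and 828 on day 15, with no fall at any interval, and day 15 was 4.86-fold above day 2 (log2 2.28). Dlx5 encodes a homeodomain factor of osteoblasts and maturing chondrocytes. It read 11.3 on day 2, 217 on day 6, 511 on day 9, 490 on day 12 and 572 on day 15, so it was above the floor by day 6 and nearly level from day 9. Day 15 was at least 7.82-fold above day 2. Its neighbour Dlx6, often expressed with it, was under the floor on all 5 arrays, at 43.3, 60.9, 5.24, 9.07 and 4.80.

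**Figure D2:**
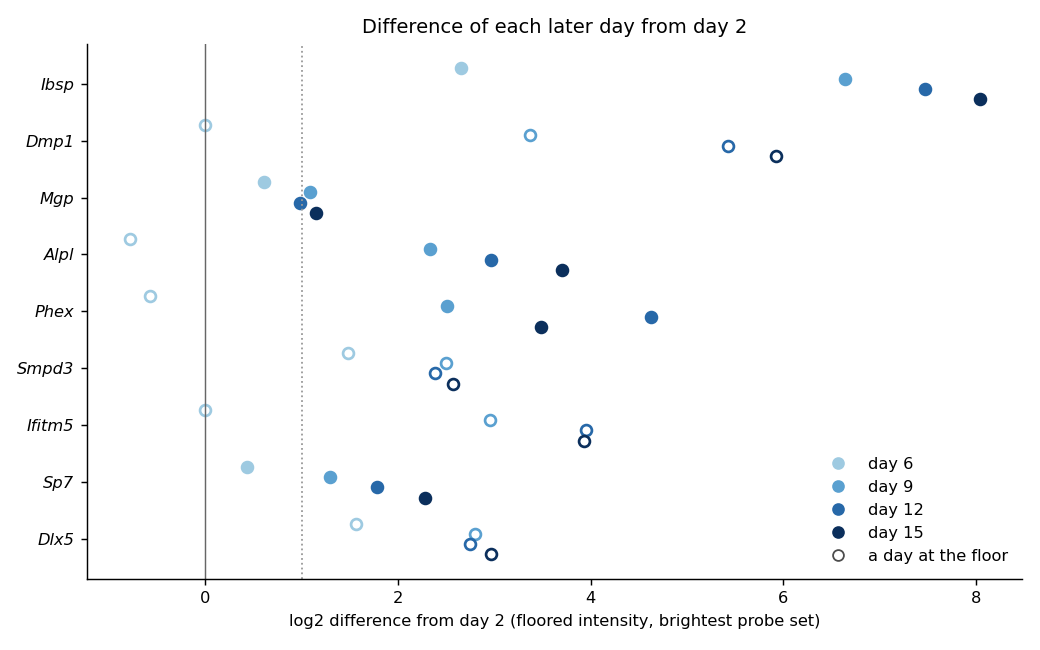
The log2 difference of days 6, 9, 12 and 15 from day 2 for the brightest probe set of each gene, in darker blue for later days; the dotted line marks 2-fold and open circles mark a value with 1 or both days at the floor. On day 9 and day 15 all 9 genes lie past 2-fold, and on day 6 only Ibsp, Smpd3 and Dlx5 do.

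Taken interval by interval, day 6 was at least 2-fold above day 2 for 3 of the 9 genes (Ibsp, Smpd3 and Dlx5), where 10.2% of all genes were. By day 9 all 9 were at least 2-fold above day 2, against a background of 15.1%, with a median log2 difference of 2.51. By day 12 there were 8, against 16.1%, Mgp lying just under the line.

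For most of these genes the interval between days 6 and 9 stood out. Day 9 was at least 2-fold above day 6 for 7 of the 9 genes, all but Mgp at 1.39-fold and Sp7 at 1.81-fold, and 5.87% of all genes were. At least 4-fold higher were 5 of the 9 (Ibsp, Dmp1, Alpl, Phex and Ifitm5), against 1.14%. By their brightest probe sets, the differences of all 9 over this interval were upward and larger than 1 probe-set SD. Mgp was only just so, at log2 0.476 against 0.474. The second Phex probe set was under the floor on both days and was first above it on day 12. Of the other Smpd3 probe sets, the second gave log2 0.14 and the last -0.11, both within 1 SD. By the same yardstick, 4 of the 9 lay within 1 SD between days 2 and 6. Between days 9 and 12 there were 3, and between days 12 and 15 there were 4. Between days 6 and 9 the median log2 difference was 2.96 for the 9 genes and -0.01 for all genes.

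Later intervals held less. Day 12 was at least 2-fold above day 9 for 3 genes, Dmp1 at 4.15-fold, Phex at 4.34-fold and Ifitm5 at 2.00-fold, against a background of 1.72%. Day 15 was at least 2-fold above day 12 for 0 of the 9, where 4.23% of all genes were, and at least 2-fold below it for Phex alone, where 3.92% were. Across both late intervals, day 15 was at least 2-fold above day 9 for Ibsp, Dmp1 and Alpl, against a background of 5%. Ibsp, Dmp1 and Sp7 showed no fall at any interval, as did 4.44% of all genes. The second probe set of Ibsp put day 15 at 2.22-fold above day 12, where the brightest put it at 1.48-fold.

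By brightest probe set, the largest single upward interval was days 6 to 9 for 6 genes (Ibsp, Dmp1, Alpl, Phex, Ifitm5 and Sp7). It was days 2 to 6 for the other 3. By its second probe set, Phex was under the floor until day 12, which was at least 7.06-fold above day 9. Among the 1798 genes at least 2-fold higher on day 15 than on day 2, 23.7% had their largest interval between days 6 and 9 and 56.7% between days 2 and 6. The interval from day 2 to day 6 is longer than the others, and the differences were not divided by its length. Which interval is largest therefore depends partly on interval length. The members were chosen with earlier results of these data known, so these counts are descriptions.

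**Figure D3:**
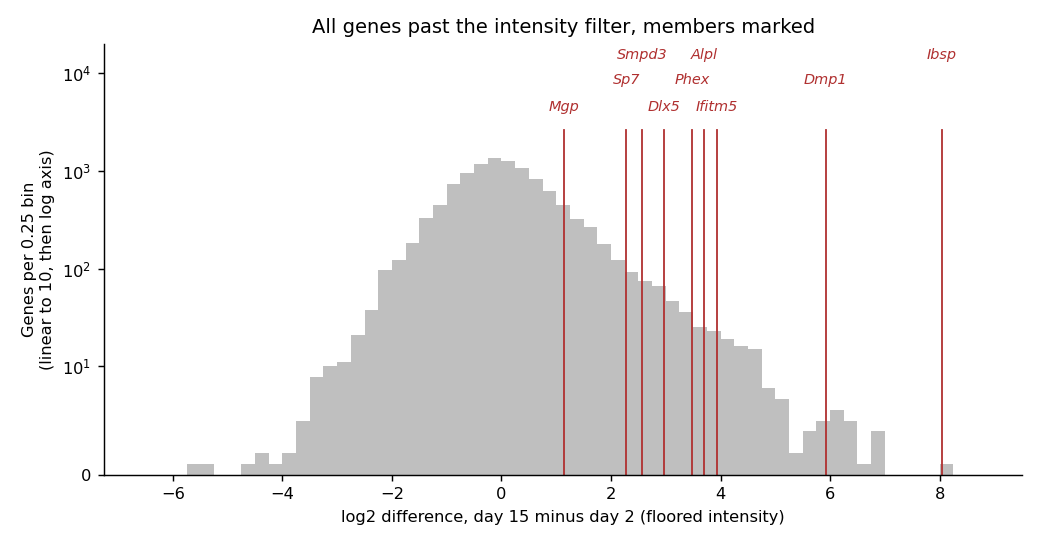
Number of genes by log2 difference between day 15 and day 2 for the 11075 genes past the filter, in grey bins, on a count axis that is linear to 10 and logarithmic above it. Red lines mark the 9 mineralisation genes, from Mgp at 1.15 to Ibsp at 8.04.

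A straight-line trend of floored log2 intensity on day was fitted over the 5 arrays with limma. It tests for a steady slope against the scatter of the days about the line, which is no replicate error. After Benjamini-Hochberg adjustment over all 11075 genes, 0 of the 9 passed an adjusted p of 0.05, while 6 of all genes passed with a rising slope (0.0542%). At an unadjusted p under 0.05, 9 of the 9 had a rising slope, where 14.4% of all genes did. Ibsp had a slope of 0.66 ± 0.084 log2 units per day (SE, limma adjusted p = 0.0651), higher at each of 4 intervals. The slope of Dmp1 was 0.53 ± 0.078 (limma adjusted p = 0.0669) and that of Sp7 0.18 ± 0.022 (limma adjusted p = 0.0651). The least steep was Mgp at 0.085 ± 0.025 (limma adjusted p = 0.115). Fitted on log2 of day instead, 5 of the 9 passed (Ibsp, Mgp, Smpd3, Sp7 and Dlx5), where 6.63% of all genes rose, and the smallest of their limma adjusted p-values was 0.0152, for Dlx5.

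The rest of the mineral pathway was read from lists of other genes. Beside the counts of these lists, 16.2% of all genes were at least 2-fold higher on day 15 than on day 2 and 11.6% lower. Of 12 symbols listed for pyrophosphate and phosphate handling, 5 were measured. Of these, 4 were at least 2-fold lower on day 15 than on day 2 and 0 higher, with a median log2 difference of -1.58. Ank, the pyrophosphate exporter, read 8014 on day 2, 4171 on day 6, 2331 on day 9, 2025 on day 12 and 2677 on day 15, and day 15 was 2.99-fold below day 2. Nt5e, the ectonucleotidase CD73, read 9362, 1560, 624, 715 and 1979, and day 15 was 4.73-fold below day 2; a second probe set gave a 5.28-fold lower value and the last was under the floor until day 15. Of the phosphate transporters, Slc20a2 was 4.47-fold lower on day 15 and 5.85-fold by its other probe set. For Slc20a1 the brightest probe set was 2.85-fold lower, while its other 2 gave log2 differences of 0.02 and 0.13. Entpd5 was 1.04-fold apart, with its other probe sets between log2 -0.10 and 0.74, and Phospho1 had no probe set of its own.

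Of 14 other bone matrix genes, 10 were measured. Of these, 6 were at least 2-fold higher on day 15 than on day 2, 0 were lower, and the median log2 difference was 2.06. Tnn, among the 6, was under the floor until day 15, when it read 508, and passed the filter only with that reading. The type I collagen genes had the largest folds: Col1a1 read 36146 on day 15 against 313 on day 2, 116-fold, and 12.5-fold by its second probe set. Col1a2 read 44563 on day 15 against 555 on day 2, 80.4-fold, and 62.6-fold and 2.89-fold by its other 2 probe sets. Postn, which encodes periostin, was 15.4-fold higher. Sparc, encoding osteonectin, read 46199 on day 15 against 23352 on day 2, 1.98-fold. Of its other probe sets, 1 was 2.15-fold higher and a dim one at least 2.23-fold lower. Fam20c, the kinase that phosphorylates secreted matrix proteins, was 1.34-fold lower, 2.20-fold lower by another probe set, and under the floor on both days by the last. The osteoblast products Spp1 and Bglap had no probe set of their own.

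Of 20 osteoblast regulators, 14 were measured, 6 higher by 2-fold or more and 2 lower, and the median log2 difference was 0.76. The share lower is near the 11.6% of all genes. Vdr, among the 6, read 94.6 on day 2 and 192 on day 15, and its other probe set gave log2 -0.56. Dlx3, among the 2, read 216 on day 2 and 66.6, under the floor, on day 15. Each passed the filter only with its highest reading, so these 2 calls were not independent of the filter. Bmp4, a bone morphogenetic protein, read 2472 on day 15 against 175 on day 2, 14.1-fold, and Pth1r, the parathyroid hormone receptor, was 12.8-fold higher. Mef2c, a factor of chondrocyte hypertrophy, was 5.02-fold higher on day 15, and its other 4 probe sets were 3.52-fold to 9.02-fold higher. Twist1, a brake on Runx2 activity, was 4.49-fold higher, and its relative Twist2 at least 22.7-fold lower. Runx2 had no probe set of its own.

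Of 7 osteocyte genes, 3 were measured, and 2 were at least 2-fold higher on day 15. Pdpn, an early osteocyte marker, read 2427 on day 15 against 229 on day 2, 10.6-fold, and Dkk1, a Wnt inhibitor, was at least 3.65-fold higher. The second probe set of Dkk1 put day 15 at least 1.06-fold above day 2. Sost, which encodes the late osteocyte product sclerostin, was under the floor on all 5 arrays. Mepe, which is also in the matrix list, was above the floor on day 2 only. Of 9 inhibitors of mineral deposition, 4 were measured; Mgp was higher, Nt5e, which is also in the first list, was lower, and Tnfrsf11b and Fetub were under 2-fold.

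**Figure D4:**
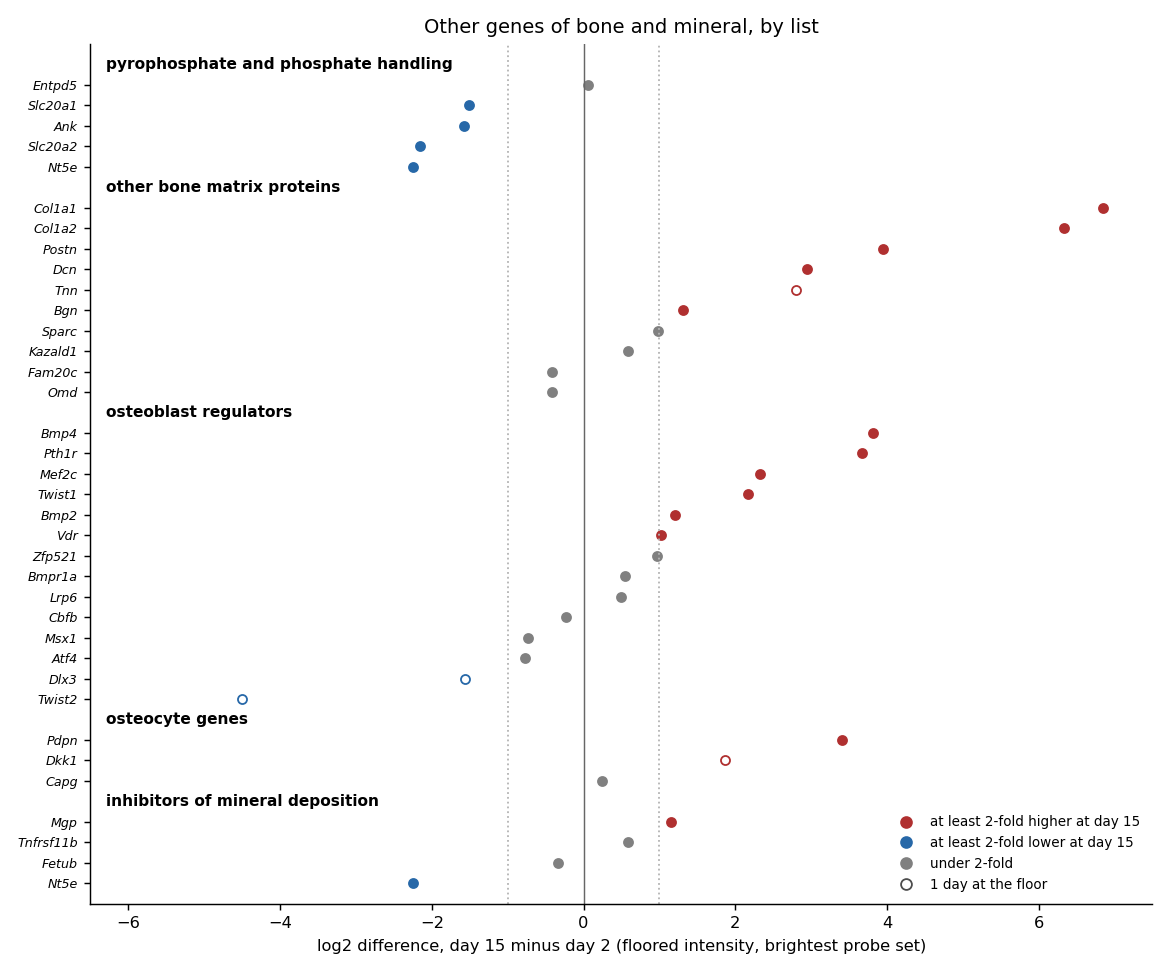
Log2 difference between day 15 and day 2 for the measured genes of each list, with red for 2-fold or more higher, blue for 2-fold or more lower, grey under 2-fold and open circles with 1 day at the floor. In the pyrophosphate and phosphate list 4 of 5 genes lie left of the 2-fold line, and in the matrix list 6 of 10 lie right of it.

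Markers of chondrocytes and of other cells differed over the same days too. The shares of all genes to set beside their counts are again 16.2% higher and 11.6% lower. The 15 chondrocyte markers were all measured on all 5 arrays and none was under the floor on any; 11 were at least 2-fold lower on day 15, 1 higher, and their summed intensity was 161460, 182765, 108359, 52526 and 65045 on days 2 to 15. Hypertrophic chondrocyte markers summed to 5688, 3723, 7328, 10939 and 20265, with 3 of 4 measured genes higher on day 15. The lower one, Col10a1, which encodes the type X collagen of hypertrophic cartilage, read 1686 on day 15 against 4800 on day 2. Col10a1 read 228 on day 6 and 35.1 on day 9, while Panx3, Mmp13 and Pth1r were each higher on day 6 than on day 2 by their brightest probe sets. Pth1r is also counted among the osteoblast regulators.

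Adipocyte markers summed to 3635, 12360, 59733, 104319 and 54393, with 6 of 8 measured genes higher. Smooth muscle and pericyte markers summed to 12295, 26164, 34230, 43122 and 41954, with 5 of 6 higher, and Mgp is known from smooth muscle too. Rgs5, among the 5, read 77.0 on day 2 and 182 on day 15, and passed the filter only with the latter. Tendon markers summed to 374, 1113, 3842, 6212 and 6086, with 3 of 3 measured genes higher. Thbs4, among the 3, read 68.1 on day 2 and 602 on day 15, and passed the filter only with the day 15 reading. Scx, below the intensity filter, read 136 on day 2 and 82.5 on day 15 by its brightest probe set. Osteoclast markers summed to 2428, 2253, 3693, 5420 and 6389, with 3 of 10 measured and 2 higher. Ctsk, at 5190 on day 15 against 1010 on day 2, made up most of the day 15 sum. The other measured gene, Nfatc1, was 2.06-fold lower on day 15, and its other probe sets were lower too, at log2 -0.78 to -1.38. The osteoclast genes Calcr, Dcstamp and Ocstamp were under the floor on all 5 arrays. Macrophage markers summed to between 715 and 1606, with 0 of 5 measured genes higher, and no endothelial marker of 7 passed the filter. The part of these cells in the mineralisation genes' course was not tested.

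**Figure D5:**
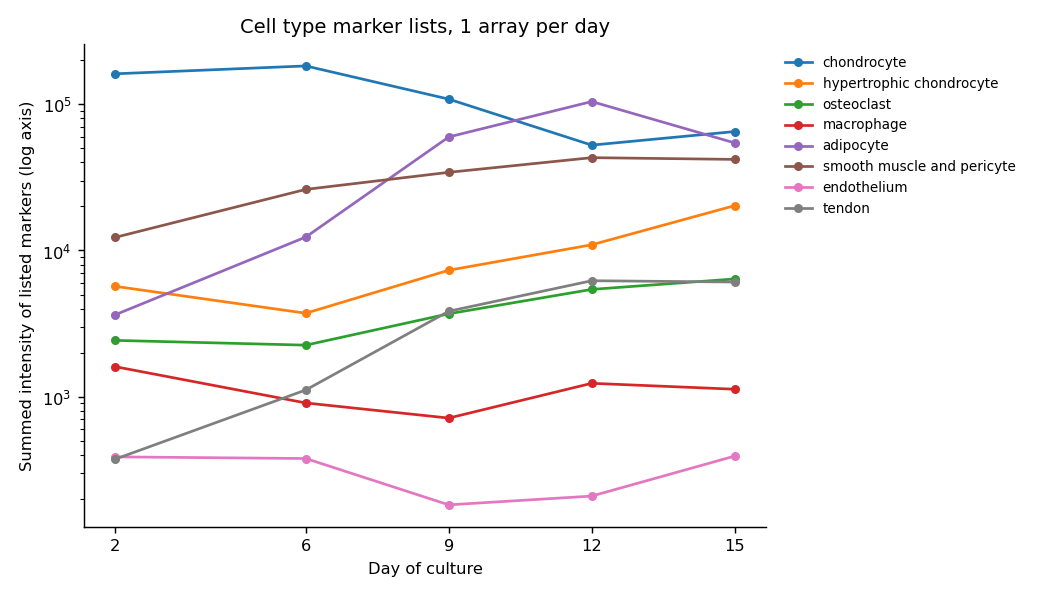
Summed intensity, on a log axis, of each list of cell type markers against day of culture, 1 array per day. The chondrocyte sum is lower from day 9, the adipocyte and tendon sums are highest on day 12, and the hypertrophic sum is highest on day 15.

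The genes with the most similar course were found for each member as the 3 with the smallest root-mean-square distance in centred log2 intensity over the 5 arrays. Sp7 lay nearest to Mef2c, at 0.087. Ifitm5 lay nearest to Mdk, the heparin-binding growth factor midkine, at 0.13, and Mdk was also second for Phex at 0.37. The nearest to Ibsp was Fabp4, an adipocyte fatty acid-binding protein, at 0.55, and Dmp1's nearest was Apoe at 0.54. The courses were centred but not scaled, so distances tend to be larger for genes with larger folds and do not measure shape alone. Dlx5 lay nearest to Itgb8 at 0.071, and Mgp to Armc10 at 0.055. Among the members themselves, Smpd3 and Dlx5 were closest at 0.16, then Alpl and Ifitm5 at 0.36, Smpd3 and Sp7 at 0.45, and Phex and Ifitm5 at 0.46. Ibsp and Mgp, with the largest and smallest folds, were farthest apart at 2.71. Smpd3 and Dlx5 were both raised to the floor on day 2, and Smpd3 was read from its brightest probe set only. These distances are over 5 arrays that every gene shares.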

How the data were processed

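Intensities were read from 5 arrays, 1 per day. The authors deposited linear probe-set intensities. The submitters' processing notes name MAS5, whose version and settings are not given in the sources used here. The mean of each array after trimming 2% from each end was 500, and no further scaling was applied. Probe sets were named from the platform annotation: 34945 had 1 symbol, 932 several and 9160 none, and 64 control probe sets were left out. Symbols were updated through a RefSeq gene table. Values under 73.1 were raised to it before log2. Genes whose brightest probe set averaged at least 105.93, the median over probe sets, were kept. The trend was fitted with limma 3.58.1 (lmFit, eBayes) in R 4.3.3 and checked on simulated data, with Python 3.11.15 for the rest. The precision is limited by the number of arrays. Named genes were all members, the listed partner and marker genes, and the 3 most similar in course per member. The members and lists were chosen with earlier results of these data known; centring the courses was decided after seeing the data. Alternatives were the floor, a pseudocount, the filter, median centring, the probe-set rule, pooled days and each day left out.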

Additional observations from a re-analysis of the deposited data

How the results depend on the processing

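No paired analysis was possible because each day had 1 array. The count of members at least 2-fold higher was 9, and it was 8 with the mean over probe sets (Smpd3 at log2 0.45; 12.1% of all genes, against 16.2% with the brightest), with a stricter filter at the 70th percentile (Smpd3 not kept; 14.8%), with pooled days (Mgp at 0.76; 9.85%) and with day 15 against day 6 (Mgp at 0.54; 8.42%); none was 2-fold lower under any of the alternatives run. The count passing the adjusted trend was 0; it was 3 (Ibsp, Dmp1 and Sp7) with a pseudocount in place of the floor, where 66 of 11075 genes passed rising against 6 with the floor, 3 (the same genes) with the stricter filter, where 119 of 7806 did, and 5 on log2 of day, where 734 of 11075 did, and between 0 and 0 with each day left out in turn. Of 89 recomputed differences of single members, 70 moved by less than the probe-set spread, 19 by more and 0 reversed; Ibsp ranged over 5.39 to 8.18, Dmp1 4.61 to 7.09 and Dlx5 1.40 to 4.63. Median centring moved the median of all genes to 0.14. Without centring the courses, chosen after seeing the data, 9 of 27 most similar genes were shared. Values near the floor carry no order.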
